A study of Rattus norvegicus with 16 samples.

Results

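Collagens, laminins and integrins were followed in the rat hypothalamus as 1 family of matrix and matrix-receptor genes. The members were every probe set with a single gene symbol that named a collagen chain (Col), a laminin chain (Lama, Lamb or Lamc) or an integrin (Itga or Itgb), with Itgam left out. That rule gave 76 of the 14217 genes that a probe set with 1 symbol names, read by 111 of 31042 probe sets: 41 collagen genes, 10 laminin genes and 25 genes with an integrin name. Itgb1bp1, Itgb1bp2, Itgb3bp and Itgbl1 carry an integrin name but do not encode integrin subunits, so they were kept as a set of their own. A probe set is a group of short oligonucleotides on the array meant to read 1 transcript, though some kinds can read several. A gene can have several probe sets. Of the members, 63 probe sets for 49 genes were above a brightness threshold and are described first. The other 48 were dim and are described apart, and 27 genes had dim probe sets only.

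Hypothalamus RNA came from 16 male Wistar rats aged 7 to 8 weeks, with 1 Affymetrix array for each rat and 4 rats in each of 4 groups. Control rats met neither stress nor odour. The stress group was restrained for 2 h, the linalool group breathed (R)-(-)-linalool, a scented terpene alcohol found in lavender, for 2 h, and the last group had linalool and restraint together for 2 h. The sources used here name no other genotype or agent. The groups address how matrix genes differ with restraint, with linalool, and with linalool under restraint. Each tissue sample is a mixture of cells, so fewer cells of a type and less RNA per cell cannot be told apart in any value given here.

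Collagens are secreted chains that wind into helical ropes. Type I, III and V collagens form fibrils, which in the brain lie in the meninges and around larger vessels. Type IV collagen and laminins build the basement membrane, the thin sheet that wraps brain capillaries and lies under the outer surface of the brain. Integrins are cell-surface receptors made of an alpha and a beta subunit, and they tie cells to collagen, laminin and other matrix proteins.

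Promoters that bear on the results are shown here, from RefSeq on the rat build GRCr8, written 5′ to 3′ in the direction of the named gene and ending before its annotated start unless stated otherwise. Of the 76 member genes, 59 were matched in the promoter table, with 62 windows of 250 bases. Col4a1 and Col4a2, the main chains of type IV collagen, lie head to head, and the 76 bases between their starts at chr16:84885521-84885596 (shown on the plus strand, that of Col4a1) are shared by both genes. Col1a2 is shown because it varied together with Col1a1 and Col3a1 from rat to rat, and only the 100 bases farthest from the annotated start are given, at chr4:33518307-33518406 on the plus strand. Serpinh1 (chr1:163062977-163063226, minus strand) and P4ha2 (chr10:38743644-38743893, plus strand) are not members. They are shown because they encode proteins that fold and modify collagen and were higher after restraint.
Col4a1 and Col4a2: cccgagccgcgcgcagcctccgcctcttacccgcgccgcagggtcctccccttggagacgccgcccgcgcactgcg
Col1a2: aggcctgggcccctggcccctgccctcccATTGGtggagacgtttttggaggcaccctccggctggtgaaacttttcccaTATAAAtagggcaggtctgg
Serpinh1: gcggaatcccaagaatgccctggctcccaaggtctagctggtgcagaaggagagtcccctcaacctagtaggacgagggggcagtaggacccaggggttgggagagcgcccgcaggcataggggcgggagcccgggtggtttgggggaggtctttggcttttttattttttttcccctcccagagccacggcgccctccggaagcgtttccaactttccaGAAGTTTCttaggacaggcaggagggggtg
P4ha2: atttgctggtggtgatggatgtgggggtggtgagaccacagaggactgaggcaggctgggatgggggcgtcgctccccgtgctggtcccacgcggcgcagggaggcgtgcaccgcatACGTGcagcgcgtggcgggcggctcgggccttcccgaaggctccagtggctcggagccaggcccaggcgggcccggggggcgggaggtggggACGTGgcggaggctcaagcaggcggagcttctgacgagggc

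Capitals mark the matches to 4 short motifs, searched on both strands: CCAAT, then TATAAA, then the inverted pair of heat shock element units GAANNTTC, and last the hypoxia response core ACGTG. In Col1a2 the first match, CCAAT read on the other strand, starts 221 bases before the annotated start, and TATAAA starts 170 bases before it. Serpinh1 holds the heat shock motif 30 bases before its start. P4ha2 holds the hypoxia core at 133 and at 41 bases before its start. The 76 bases between Col4a1 and Col4a2 hold none of these letters. The matches shown did not overlap one another. Among 33469 rat promoter windows of 250 bases, 34.0% held the first motif, 12.9% the next, 7.23% the heat shock motif and 16.6% the hypoxia core. Among the 62 member windows the shares were 25.8%, 9.68%, 9.68% and 6.45% in the same order. In 76-base windows next to the start, the shares over all promoters were 13.0%, 4.61%, 2.22% and 5.95%. A match describes letters only.

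Values are given as log2(signal + 16) after quantile normalization, so a difference of 1 is a doubling on that scale and the change of a dim probe set is understated. A probe set was called when its limma p-value, adjusted by the Benjamini-Hochberg method over all 18625 bright probe sets, was under 0.05. An average stress difference is the mean of stress minus control and of stress with linalool minus linalool. An average linalool difference is the mean of linalool minus control and of stress with linalool minus stress. Comparisons share rats: stress minus control and linalool minus control use the same control rats, and the averages and the interaction use all 16. Sgk1, a gene that glucocorticoids induce, served as a check of the restraint labels: it rose by 2.27 ± 0.12 (SE) in stress minus control and by 2.07 ± 0.12 in stress with linalool minus linalool, with limma adjusted p of 4.13e-08 and 1.71e-07.

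Before normalization the median deposited signal of an array ran from 67.03 to 127.4. The BioC spike-in control read 793 to 898.2 on 3 arrays and 208.4 to 254.8 on the other 13. The 3 arrays were from linalool rats 2 and 4 and rat 2 of the group with both treatments. All 3 rats breathed linalool, so high BioC is partly confounded with linalool. The beta-actin 3′ to 5′ signal ratio, a sign of RNA quality, was 4.93 for control rat 1 and 2.08 to 3.5 for the others. As markers of the tissue, 10 of 11 hypothalamic neuropeptide genes on the array were bright. Of 8 pituitary markers 3 were bright, and their summed signal was 208 in 1 control rat, while the lowest sum in the other groups was 2330. With values as deposited the median difference of all probe sets in stress with linalool minus linalool was 0.32, against -0.02 after normalization, and 99.4% of the calls there were higher, against 66.3%. The same scaling moved the average stress median from -0.01 to 0.21 and the higher share of its calls from 62.7% to 98.2%. In stress minus control the median went from 0.00 to 0.10 and the higher share from 70.1% to 85.2%. Scaling each array to 1 median gave 73.8% higher calls in the average linalool difference, against 83.5%. The 133 calls over the array in that difference became 1 with high BioC as a block and 0 on the 13 arrays with low BioC. Those in stress with linalool minus stress went from 121 to 51 and 0.

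None of the 63 bright members was called in any of the 7 comparisons. For 63 members a count of 0 lies near the shares over all probe sets, so it says nothing particular of the members. In stress minus control 0 of 63 bright members were called, against 0.897% of all bright probe sets. In stress with linalool minus linalool 0 of 63 were called, against 1.69%. In the average stress difference, which had the most calls over the array, 0 of 63 were called against 4.22%. The shares of all probe sets that were called and higher were 0.628%, 1.12% and 2.65% in these 3 comparisons. In linalool minus control 0 of 63 members were called, against 0.0% of all probe sets, and in stress with linalool minus stress 0 of 63, against 0.65%. In the average linalool difference 0 of 63 were called against 0.714%, and in the interaction 0 of 63 against 0.0%. At an unadjusted p under 0.05 the limma counts were 2, 5, 4, 5, 3, 9 and 0 members in that order, or 3.17%, 7.94%, 6.35%, 7.94%, 4.76%, 14.3% and 0.0%. Over all bright probe sets the same shares were 12.6%, 16.3%, 18.9%, 9.86%, 12.6%, 14.8% and 8.01%.

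The intervals bound what was missed. In the average stress difference the 95% interval lay within 1 log2 unit of 0 for 63 of 63 bright members and within 0.5 for 50. In the average linalool difference the counts were 62 and 48. In stress minus control they were 63 and 38, and in linalool minus control 59 and 34. The interaction was the least precise, with 57 and 18. A call missed does not show that a member was unchanged, and differences under about 0.5 could not be separated from rat-to-rat spread for many members.

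**Figure D1:**
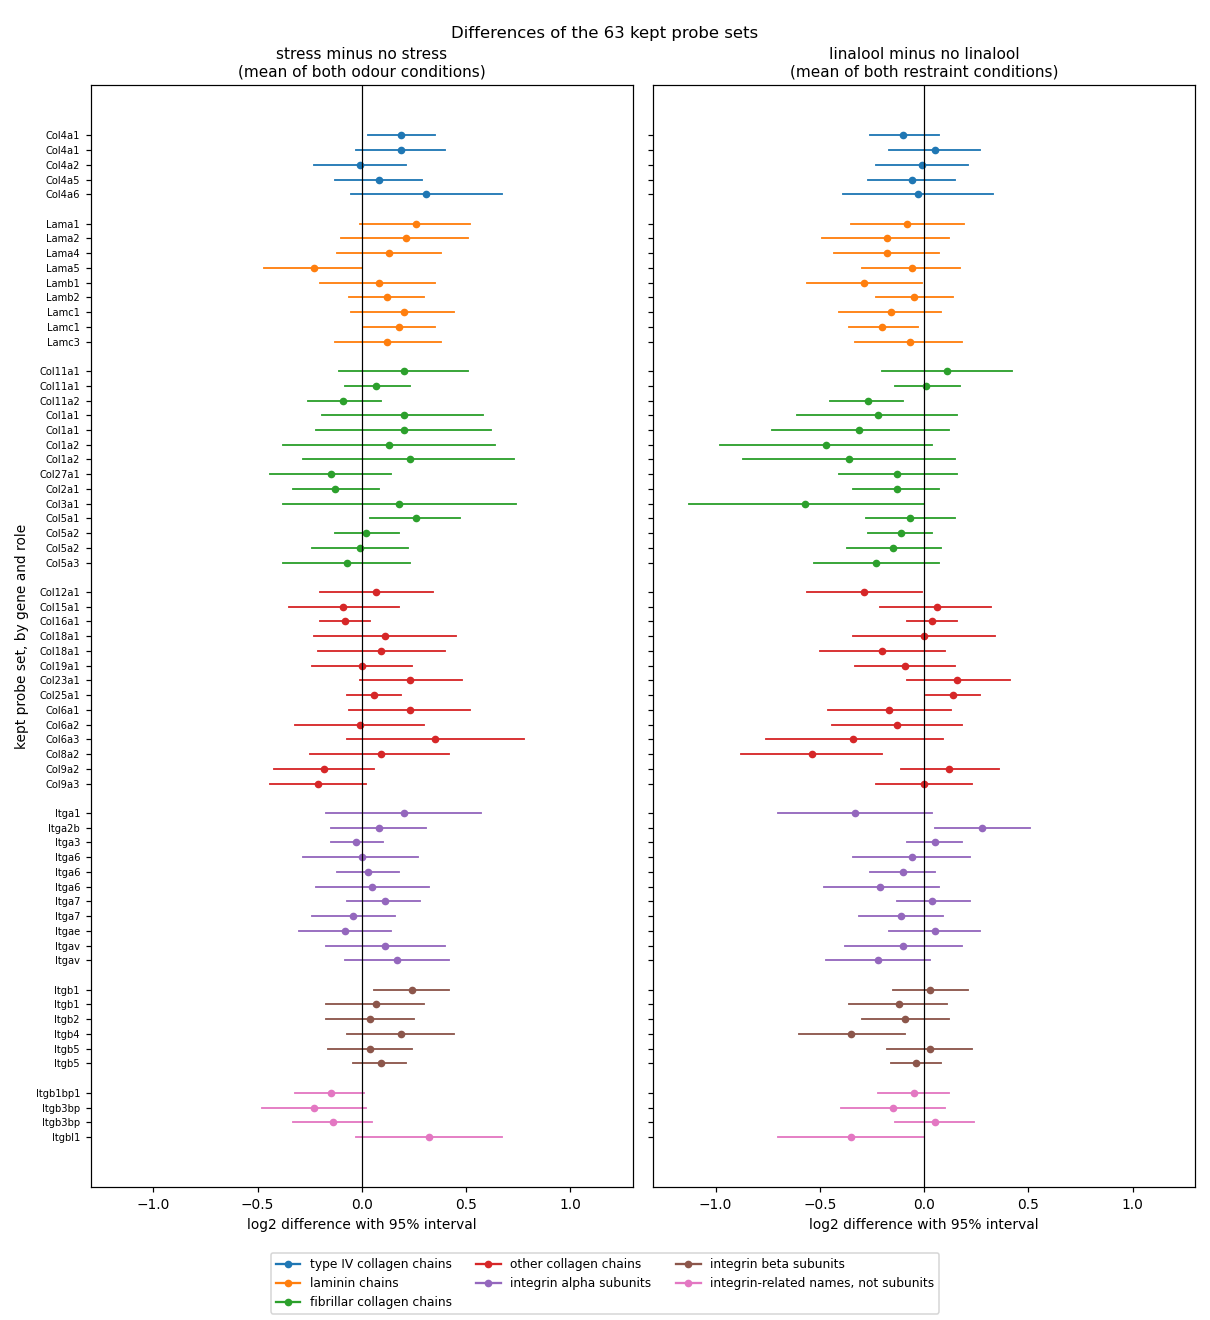
Average stress difference (left) and average linalool difference (right) of each of the 63 bright member probe sets, on the log2(signal + 16) scale, with the 95% interval as a line and the role as the colour. Of the points, 43 lie above 0 on the left and 16 on the right, and the widest intervals belong to Col3a1 and Col1a2.

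The members' median difference was small and had opposite signs for the 2 treatments. The median over the 63 bright members was 0.08 in the average stress difference, where 68.3% of members were above 0, against 46.7% of all probe sets. In the average linalool difference the median was -0.10 and 25.4% of members were above 0, against 47.6% of all probe sets. In the single comparisons the medians were 0.05 for stress minus control, 0.09 for stress with linalool minus linalool, -0.11 when linalool rats were set against control rats, and -0.10 when rats with both were set against stress rats. These 6 signs were the same with values as deposited and with each array scaled to 1 median, but not all held otherwise. Without stress rat 3 the stress minus control median was -0.01, and without rat 1 of the group with both treatments that of stress with linalool minus linalool was 0.00. With the mean of meningeal markers as a covariate the latter was -0.02 and linalool minus control 0.00. That covariate was chosen after the data were seen, and these values say nothing of a cause. On the 13 arrays with low BioC, stress with linalool minus stress had a median of -0.02. The median interaction was 0.00, and 0.26 with values as deposited, where that of all probe sets was 0.22. With values as deposited, the members' average stress median was 0.31 and lay 0.10 above that of all probe sets. Probe sets of 1 gene, and genes that vary together, do not count as separate observations in these shares.

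Type IV collagen was the first of the basement membrane components examined, and 5 of its 7 probe sets were bright. Col4a1 encodes a chain present in basement membranes throughout the body. Its values on the brighter probe set were 7.68, 8.44, 8.12 and 8.11 in the control rats, 8.26, 8.18, 8.40 and 7.96 in the stress rats, 8.24, 7.94, 7.90 and 8.18 in the linalool rats, and 8.34, 8.56, 8.11 and 8.28 in the rats with both. The groups overlapped, and control rat 1, which had the highest beta-actin ratio, was the lowest of all. The part of RNA quality in that value was not tested. Its average stress difference was 0.19 ± 0.10 (SE; 95% interval -0.03 to 0.40), with a limma adjusted p of 0.355. The other bright Col4a1 probe set also gave 0.19 ± 0.08 (interval 0.03 to 0.35; limma adjusted p = 0.182). Col4a2, its partner across the shared promoter, gave -0.01. Col4a5 and Col4a6, a neighbouring pair of chains with a narrower distribution, gave 0.08 and 0.31. Over the 5 probe sets the median average stress difference was 0.19, with 4 above 0, and the median average linalool difference was -0.03, with 1 above 0. Of 12 bright endothelial markers, from the cells that line these membranes, 16.7% were called with stress on average, against 4.22% of all probe sets. Slc2a1 rose by 0.31 and Slco1a4 fell by 0.34 (limma adjusted p of 0.0393 and 0.0472). The median of the 12 markers was -0.01, and their part in the type IV values was not tested. Their summed signal ran from 4580 to 6010 in control rats, 4590 to 6550 in stress rats, 4640 to 5100 in linalool rats and 4410 to 5040 in rats with both.

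Laminins are cross-shaped trimers of an alpha, a beta and a gamma chain, and 9 of their 14 probe sets were bright. Lamc1 encodes the gamma chain found in most laminins. Its brighter probe set read 8.92, 8.58, 8.72 and 8.98 in the control rats, 8.98, 8.98, 9.23 and 8.82 in the stress rats, 8.69, 8.46, 8.64 and 8.74 in the linalool rats, and 8.90, 8.64, 8.67 and 8.92 in the rats with both. Stress rat 3 was the highest, and each treated group overlapped the controls. Its average stress difference was 0.18 ± 0.08 (limma adjusted p = 0.227) and its average linalool difference was -0.20 ± 0.08 (limma adjusted p = 0.259). The second Lamc1 probe set had the same signs, at 0.20 and -0.16.

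Lama1 encodes an alpha chain of the outer brain and larger-vessel basement membranes, and it had the smallest p of the members in stress minus control. It read 6.54, 6.06, 6.37 and 6.70 in the control rats and 6.74, 6.84, 6.99 and 6.82 in the stress rats, which did not overlap. With linalool alone it read 6.46, 6.66, 6.62 and 6.32, and with both 7.16, 6.07, 6.56 and 6.58, which did overlap. The stress minus control difference was 0.43 ± 0.18 (interval 0.05 to 0.81; limma adjusted p = 0.325), and with linalool present the stress difference was 0.08 ± 0.18 (limma adjusted p = 0.877).

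Lama5, the alpha chain of mature vessel laminins, had a negative stress difference, unlike the other laminin chains. Its values were 6.69, 6.30, 6.64 and 7.01 in control rats and 6.39, 6.67, 6.86 and 6.46 in stress rats, which overlapped. They were 6.67, 6.68, 7.09 and 6.61 in linalool rats and 6.05, 6.47, 6.55 and 6.40 in rats with both, which did not overlap. The stress with linalool minus linalool difference was -0.40 ± 0.16 (limma adjusted p = 0.224) and the average stress difference -0.23 ± 0.11 (limma adjusted p = 0.271). Lama4, the alpha chain made by endothelium and other mesenchymal cells, ranged from 6.49 to 7.42 over all rats and gave 0.13 ± 0.12 for stress and -0.18 ± 0.12 for linalool. Over the 9 probe sets 8 were above 0 for stress, with a median of 0.13, and 0 were above 0 for linalool, with a median of -0.16.

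Of the fibrillar collagens 14 of 19 probe sets were bright, and the type I and III chains among them spread widely between rats of 1 group. Col5a2 and Col11a1 had 1 probe set each at the 33.6th percentile of that spread over all bright probe sets. Their other bright probe sets stood at the 73.9th and 92.5th percentile, and Col5a3 stood at the 91.7th. Col3a1, the chain of type III collagen, read 8.88, 9.22, 9.84 and 9.77 in the control rats, 9.44, 9.27, 10.18 and 8.87 in the stress rats, 8.37, 8.75, 9.14 and 8.52 in the linalool rats, and 10.12, 7.94, 8.78 and 9.34 in the rats with both. The last group held a rat near the top of the range and the lowest rat of all. Its average stress difference was 0.18 ± 0.27 (limma adjusted p = 0.773) and its average linalool difference was -0.57 ± 0.27 (limma adjusted p = 0.335). Its linalool minus control difference, at -0.74 ± 0.38 (interval -1.53 to 0.06), was the most negative of the members.

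Col1a2, the second chain of type I collagen, read 9.25, 9.65, 9.83 and 9.89 in the control rats, 9.84, 9.68, 10.22 and 8.94 in the stress rats, 8.93, 9.17, 9.25 and 8.91 in the linalool rats, and 10.41, 8.34, 8.94 and 9.58 in the rats with both. The order of the rats followed that of Col3a1 closely, with stress-with-linalool rat 1 high and rat 2 low. Its average differences were 0.13 ± 0.24 for stress and -0.47 ± 0.24 for linalool (limma adjusted p of 0.825 and 0.377). Col1a1, the main chain of type I collagen, read 9.43 and 7.83 in those rats 1 and 2, the second highest value after stress rat 3, at 9.44, and the lowest of all. Its brighter probe set gave 0.20 for stress and -0.31 for linalool.

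Col5a1, which encodes a chain that starts fibril assembly, had the second smallest p in the average stress difference. It read 7.15, 6.85, 6.77 and 7.12 in control rats and 7.18, 7.23, 7.48 and 7.29 in stress rats, which did not overlap. It read 6.79, 7.05, 7.03 and 7.02 in linalool rats and 7.48, 6.81, 6.92 and 7.43 in rats with both, which overlapped. The average stress difference was 0.26 ± 0.10 (interval 0.04 to 0.47; limma adjusted p = 0.177). Col11a2, a chain of a minor fibrillar collagen, had the second smallest p in the average linalool difference. It read 7.99, 7.99, 8.09 and 8.05 in stress rats and 7.85, 7.38, 7.80 and 7.75 in rats with both, which did not overlap, for a difference of -0.33 ± 0.12 (limma adjusted p = 0.222). Control rats (8.01, 8.17, 7.92 and 8.13) and linalool rats (7.58, 7.87, 7.80 and 8.13) overlapped.

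**Figure D2:**
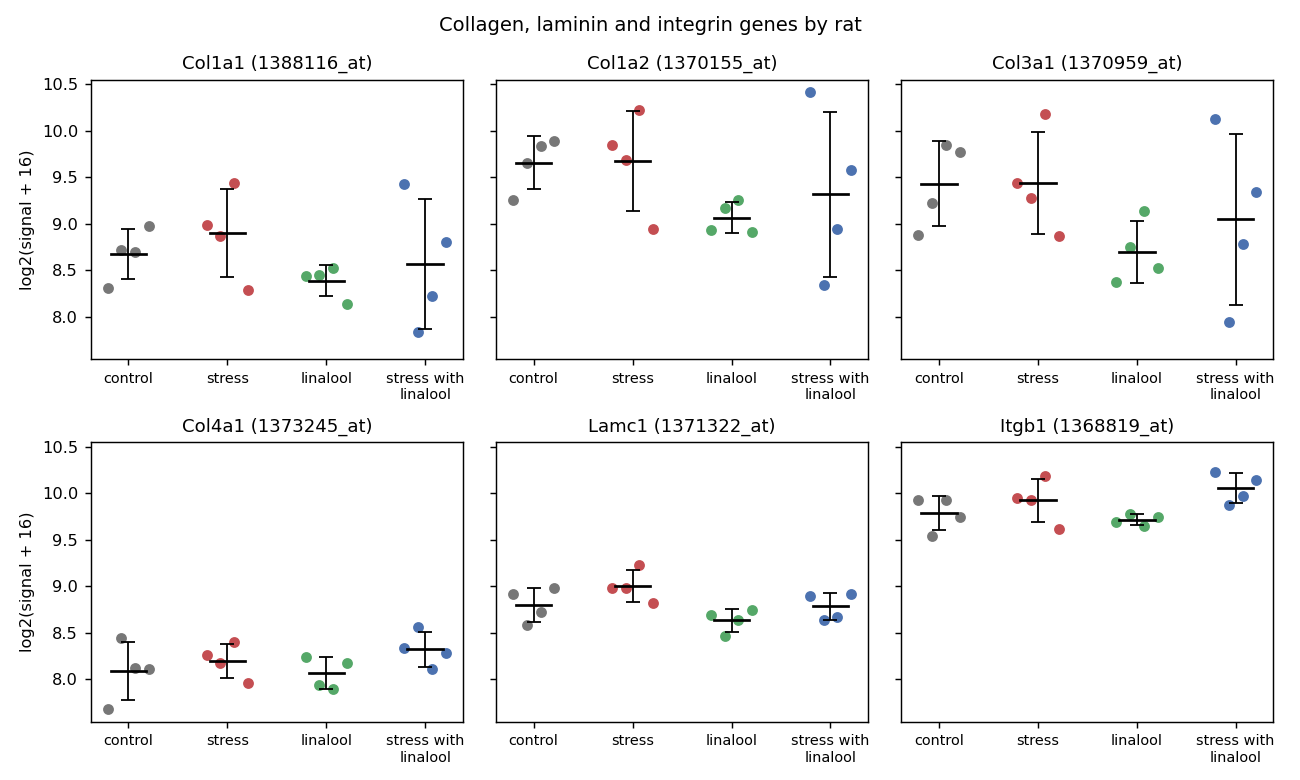
log2(signal + 16) of 6 members in each of the 16 rats, by group, with the group mean (bar) and SD (whiskers) over 4 rats. Col1a1, Col1a2 and Col3a1 spread widely among the rats with stress and linalool, from 7.94 to 10.12 for Col3a1, while Col4a1, Lamc1 and Itgb1 spread less.

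The other collagens include network, filament and membrane-bound chains, and 14 of their 32 probe sets were bright. Col8a2 encodes a short chain of the network under corneal and vessel endothelium, and had the smallest p of the members in the average linalool difference. It read 7.64, 7.83, 7.71 and 8.02 in control rats and 6.83, 7.39, 7.59 and 7.22 in linalool rats, which did not overlap. It read 7.92, 7.77, 8.37 and 7.47 in stress rats and 7.93, 6.73, 7.33 and 7.38 in rats with both, which overlapped. The difference was -0.54 in each of the single linalool comparisons, and the average was -0.54 ± 0.16 (interval -0.88 to -0.20; limma adjusted p = 0.133). Col6a3, a chain of the beaded filaments of type VI collagen, ranged from 6.46 to 8.17 and gave 0.35 ± 0.20 for stress (limma adjusted p = 0.369).

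Col25a1, a membrane-bound collagen made by neurons, was among the steadier members. It read 9.25, 9.46, 9.28 and 9.33 in control rats and 9.45, 9.79, 9.56 and 9.50 in linalool rats, which overlapped only at 9.45 and 9.46. The linalool minus control difference was 0.25 ± 0.09 (limma adjusted p = 0.372), the smallest p of the members there. With stress it read 9.62, 9.36, 9.46 and 9.57, and with both 9.47, 9.59, 9.51 and 9.54, a difference of 0.03. Col15a1, a proteoglycan-like chain of vessel basement membranes, had one of the most negative interactions, at -0.46 ± 0.25 (limma adjusted p = 0.667). Linalool rat 1, flagged below, read 7.25 for Col15a1, against 6.57 to 6.66 in the other linalool rats. Col16a1, a filament-associated chain, had a pooled SD within groups of 0.10, near the smallest of the members.

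Of the integrin alpha subunits 11 of 23 probe sets were bright, and of the beta subunits 6 of 10. Itgb1 pairs with most laminin- and collagen-binding alpha subunits. It read 9.93, 9.54, 9.93 and 9.75 in control rats, 9.95, 9.93, 10.19 and 9.62 in stress rats, 9.69, 9.78, 9.65 and 9.74 in linalool rats, and 10.23, 9.87, 9.97 and 10.14 in rats with both. The rats with both lay above all linalool rats, while stress and control rats overlapped. The average stress difference was 0.24 ± 0.08 (interval 0.06 to 0.42; limma adjusted p = 0.131), the smallest p of the members, and it came to 0.34 ± 0.12 among linalool rats and 0.14 ± 0.12 without linalool. The second Itgb1 probe set gave 0.07 for the average stress difference. All 6 beta subunit probe sets, which read 4 genes, were above 0 in the average stress difference, from 0.04 to 0.24. Without linalool 3 of them were above 0 for stress, and with linalool 6.

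Itgav pairs with several beta subunits, Itgb5 among them, and binds vitronectin and fibronectin. It read 8.81, 8.87, 9.19 and 8.48 in control rats, 8.79, 8.86, 8.89 and 8.59 in stress rats, 8.34, 8.52, 8.02 and 8.68 in linalool rats, and 9.03, 8.40, 8.78 and 8.93 in rats with both. Linalool rat 3 was the lowest, and linalool rats overlapped both the control rats and the rats with both. The linalool minus control difference was -0.45 ± 0.17 (limma adjusted p = 0.390) and the stress with linalool minus stress difference 0.00 ± 0.17. The interaction was 0.45 ± 0.23 (interval -0.05 to 0.95; limma adjusted p = 0.659). The other bright Itgav probe set gave -0.27 for linalool minus control and 0.34 for the interaction. Itgb5 had the smallest p of the members in the interaction, at 0.22 ± 0.11 (limma adjusted p = 0.658), and its other bright probe set gave 0.17.

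Itgb4, the partner of Itga6 in laminin-binding hemidesmosomes, read 7.13, 7.35, 6.77 and 7.29 in control rats and 6.43, 6.69, 6.91 and 6.83 in linalool rats. It read 7.38, 6.94, 7.54 and 7.12 in stress rats and 7.15, 6.54, 7.00 and 7.21 in rats with both. In both of these linalool comparisons the groups overlapped, and the average linalool difference was -0.35 ± 0.12 (limma adjusted p = 0.191). Itga2b, the platelet fibrinogen receptor subunit, went the other way: control rats read 6.57, 5.63, 6.41 and 5.96 and linalool rats 6.65, 6.47, 6.61 and 6.47, for a difference of 0.41 ± 0.15 (limma adjusted p = 0.403). Of 11 blood cell markers on the array only 4 were bright. None of these was called in any comparison, against 0.0% to 4.22% of all probe sets, and their median in linalool minus control was -0.06. Their summed signal ran from 4210 to 8220 in control rats and 4290 to 9210 in linalool rats, and their part in the Itga2b value was not tested. Itga1, a collagen receptor subunit, gave -0.56 ± 0.25 in stress with linalool minus stress (limma adjusted p = 0.357).

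Itgb2, the beta subunit of leukocytes and microglia, gave 0.04 for stress and -0.09 for linalool. The stress value averages opposite signs, -0.13 ± 0.14 without linalool and 0.21 ± 0.14 with it (limma adjusted p of 0.768 and 0.494). Its interaction of 0.34 was the highest of the beta subunits and was not called. Beside Itgb2, 3 of 10 bright microglia markers were called lower with stress on average, against 4.22% of all probe sets called in either direction. Gpr34 fell by 1.17, P2ry12 by 1.00 and Cx3cr1 by 0.49 (limma adjusted p of 0.000592, 0.000241 and 0.00606). The list as a whole did not go one way: 6 of 10 were above 0 with a median of 0.06, and in stress with linalool minus linalool 7 of 10 were above 0 with a median of 0.29. The summed signal of the 10 markers ran from 3490 to 3670 in control rats, 2650 to 3450 in stress rats, 3070 to 3970 in linalool rats and 3110 to 6000 in rats with both. The part of these markers in the Itgb2 value was not tested. Among the integrin-named genes that are no subunits, Itgbl1, a secreted protein with integrin-like repeats, gave 0.32 for stress and -0.35 for linalool, and both Itgb3bp probe sets and Itgb1bp1 were below 0 for stress.

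While the collagen chains themselves were not called, some of the enzymes that process them were. A list of 25 genes for collagen folding, crosslinking and breakdown had 21 bright genes, and in the average stress difference 4 of them rose and 1 fell, or 5 of 21 against the 4.22% of all probe sets. The list was chosen with earlier results of these data known, so its count is not independent evidence. In stress minus control 3 of 21 rose, against 0.628% of all probe sets called and higher. In stress with linalool minus linalool 4 of 21 rose, against 1.12%. In the linalool comparisons and the interaction 0 were called, against 0.0% to 0.714% of all probe sets. The median of the 21 was 0.11 for stress and 0.01 for linalool.

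P4ha1 encodes the catalytic subunit of the prolyl hydroxylase that makes collagen helices stable. It read 9.23, 8.98, 9.07 and 9.28 in control rats, 10.26, 10.43, 9.66 and 9.93 in stress rats, 9.19, 9.16, 9.16 and 9.37 in linalool rats, and 10.47, 10.26, 10.12 and 9.86 in rats with both. The restrained rats of both groups lay above all 8 unrestrained rats. The difference was 0.93 ± 0.15 without linalool (1.91-fold) and 0.96 ± 0.15 with it (1.95-fold), with limma adjusted p of 0.00758 and 0.00529. The interaction was 0.03 ± 0.22, and the average stress difference 0.95 ± 0.11 (limma adjusted p = 0.000112).

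P4ha2 encodes a second catalytic subunit of the same enzyme. It read 8.57, 8.04, 8.17 and 8.53 in control rats, 9.19, 9.17, 8.70 and 9.11 in stress rats, 8.49, 8.84, 8.46 and 8.73 in linalool rats, and 9.67, 9.40, 9.30 and 9.03 in rats with both. Within each odour condition the restrained rats lay above the others. The difference was 0.72 ± 0.16 in each (limma adjusted p of 0.039 and 0.0273). Without control rat 2 the stress minus control value was 0.62 (limma adjusted p = 0.123).

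Plod1, a lysyl hydroxylase that prepares collagen for crosslinks, read 8.83, 8.78, 8.88 and 9.04 in control rats, 9.54, 9.51, 9.15 and 9.32 in stress rats, 8.85, 8.82, 9.00 and 8.83 in linalool rats, and 9.61, 9.43, 9.30 and 9.23 in rats with both. The restrained rats lay above all unrestrained rats. Plod1 rose by 0.51 ± 0.07 on average (1.42-fold; limma adjusted p = 0.000726).

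Serpinh1, the collagen chaperone HSP47, which is also a heat shock gene, read 9.03, 9.92, 9.42 and 9.26 in control rats, 10.21, 10.29, 9.90 and 9.64 in stress rats, 9.40, 9.72, 9.48 and 9.54 in linalool rats, and 10.99, 10.42, 10.34 and 10.15 in rats with both. Its probe set is of a kind (suffix _s) that can read several similar transcripts. Control rat 2 overlapped the stress rats, and the rats with both lay above all others except stress rats 1 and 2. It rose by 0.94 ± 0.20 among linalool rats (limma adjusted p = 0.0227) and by 0.77 ± 0.14 on average (limma adjusted p = 0.00475). Without linalool the difference was 0.60 ± 0.20 (limma adjusted p = 0.199), and the interaction of 0.34 ± 0.28 did not pass.

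**Figure D3:**
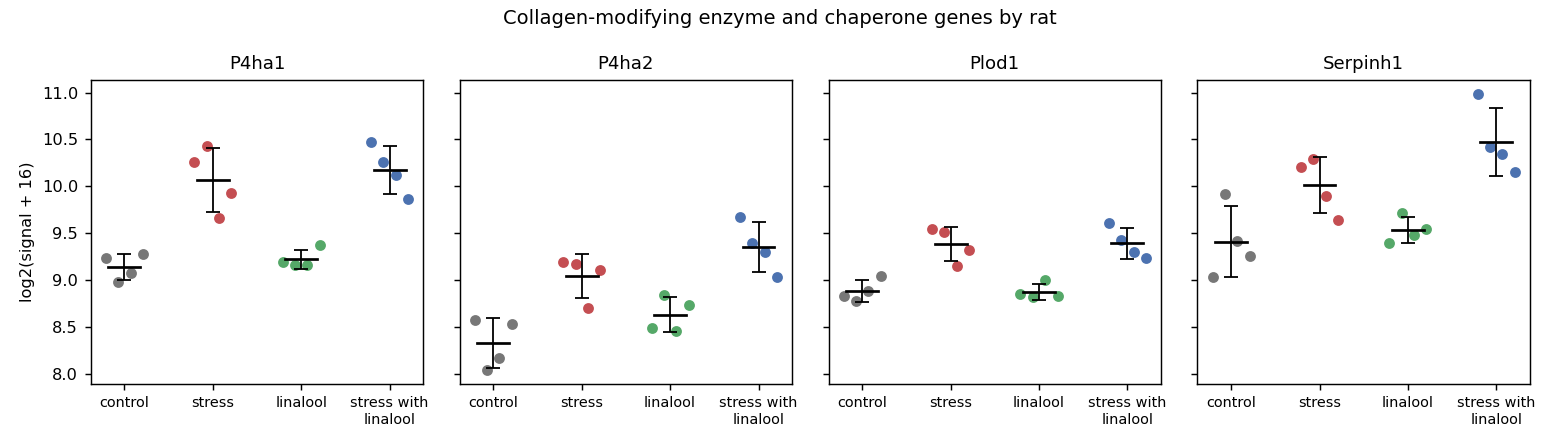
log2(signal + 16) of P4ha1, P4ha2, Plod1 and Serpinh1 in each rat by group, with the mean (bar) and SD (whiskers) over 4 rats. For P4ha1 and Plod1 all 8 restrained rats lie above all 8 unrestrained rats, at 9.66 or more against 9.37 or less for P4ha1.

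Adamts4, which cuts proteoglycans rather than collagen, was the gene of this list that fell, by 0.38 ± 0.10 on average (limma adjusted p = 0.0473). It read 8.78 to 9.30 in control rats, 8.62 to 8.80 in stress rats, 8.71 to 9.18 in linalool rats and 8.24 to 8.84 in rats with both, so the groups overlapped. Counts for single comparisons depended on single rats. The 3 calls in stress minus control became 1 without control rat 2 or 3 or stress rat 1, 2 or 4. The 4 calls in stress with linalool minus linalool became 1 without linalool rat 1 or stress-with-linalool rat 1 or 2, 2 without linalool rat 3, and 0 within the 13 arrays with low BioC. In the average stress difference the count stayed between 4 and 5 without any 1 rat.

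Partners of the basement membrane and of integrins were given by 2 further lists, also chosen with earlier results known. Of 22 basement membrane partners 20 were bright, and 0 were called in any comparison, against 0.0% to 4.22% of all probe sets. Their medians were 0.04 for stress and -0.13 for linalool, with 14 and 4 of 20 above 0. The smallest p for stress were those of Fn1, fibronectin, at 0.28, and Vwf, the endothelial clotting factor, at 0.33. Of 24 integrin signalling genes all 24 were bright, with a median of 0.01 for stress. Apbb1ip, the adaptor that links Rap1 to talin and is abundant in leukocytes, was the 1 called gene, or 4.17% of the list, about the 4.22% of all bright probe sets, so the count says nothing particular of the list. It read 7.74, 7.75, 7.70 and 7.66 in control rats, 7.35, 7.06, 7.60 and 7.15 in stress rats, 7.74, 7.42, 7.45 and 7.45 in linalool rats, and 6.98, 7.11, 7.17 and 7.09 in rats with both. Restrained rats lay below the others within each odour condition, and Apbb1ip fell by 0.42 ± 0.07 on average (limma adjusted p = 0.00414). Gpr34, P2ry12 and Cx3cr1 of the microglia markers fell too, while 6 of the 10 were above 0, and their part in the Apbb1ip value was not tested. The next smallest p was that of Tns1, tensin 1, at 0.27 (limma adjusted p = 0.173).

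The spread between rats of 1 group was large for a subset of the members. The pooled SD within groups was 0.61 for Col3a1, 0.55 for both Col1a2 probe sets, 0.45 for Col6a3 and 0.45 and 0.41 for Col1a1. Among all bright probe sets these stood at the 99.4th, 99.1st, 98.1st, 98.0th and 97.1st percentiles of that SD. Col3a1 covered 2.24 log2 units over the 16 rats. At the other end were Itgb5 and Col16a1, at the 9.77th and 10.8th percentile, and Itga3, at the 13.2nd.

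The same rats were high or low for several members. The correlation across 16 rats was computed on deviations from the group means, with rats shuffled within groups 100000 times. In all, 9 relations with Col3a1 were tested. Col3a1, Col1a2, Col1a1 and Col6a3 were named for having the widest spread in these same values. Their relations were thus not chosen independently of the data. Col3a1 with Col1a2 gave r = 0.96 (permutation p = 3e-05, adjusted 0.000135) and rho = 0.95 (p = 7e-05, adjusted 0.000315). With Col1a1 it gave r = 0.93 (permutation p = 0.00042, adjusted 0.00119) and rho = 0.86 (p = 0.00052, adjusted 0.00156). With Col6a3 it gave r = 0.89 (permutation p = 0.00053, adjusted 0.00119) and rho = 0.83 (p = 0.00122, adjusted 0.00274). Without the 2 rats farthest from the median, both from the group with stress and linalool, r was 0.91, 0.85 and 0.83 in the same order. On the 13 arrays with low BioC it was 0.93, 0.89 and 0.85.

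One probe set each of Itgb1, Lamc1 and Col4a1 was tested in the same way, with no test of how their r differed from those above. For Itgb1 r was 0.65 (permutation p = 0.0209, adjusted 0.0314) and rho 0.62 (p = 0.0356, adjusted 0.0534), and r was 0.54 without the 2 farthest rats and 0.60 on the 13 arrays with low BioC. For Lamc1 r was 0.52 (permutation p = 0.0666, adjusted 0.0856) and rho 0.54 (p = 0.0661, adjusted 0.085), and r was 0.43 without those rats and 0.53 on the 13 arrays. For Col4a1 r was 0.07 (permutation p = 0.816, adjusted 0.88) and rho 0.06 (p = 0.841, adjusted 0.946), with r = 0.34 without them and 0.42 on the 13 arrays. The second Col4a1 probe set gave r = 0.37. The array's median signal gave r = 0.04 (permutation p = 0.88, adjusted 0.88) and rho = -0.01 (p = 0.978, adjusted 0.978), and r = 0.04 without the 2 farthest rats.

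As a description, 14 of the 62 other bright members had r over 0.7 with Col3a1, or 22.6%, against 1.5% of all other bright probe sets. They were 5 of 13 other fibrillar probe sets, 4 of 14 other collagens (Col8a2, Col6a3, Col6a1 and Col18a1), 3 of 9 laminins (Lamb2, Lama2 and Lama1), Col4a5 and Itgbl1, whose r was 0.93. Of the 17 integrin subunit probe sets 0 had r over 0.7, and their highest value was 0.65. All points share the same arrays.

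**Figure D4:**
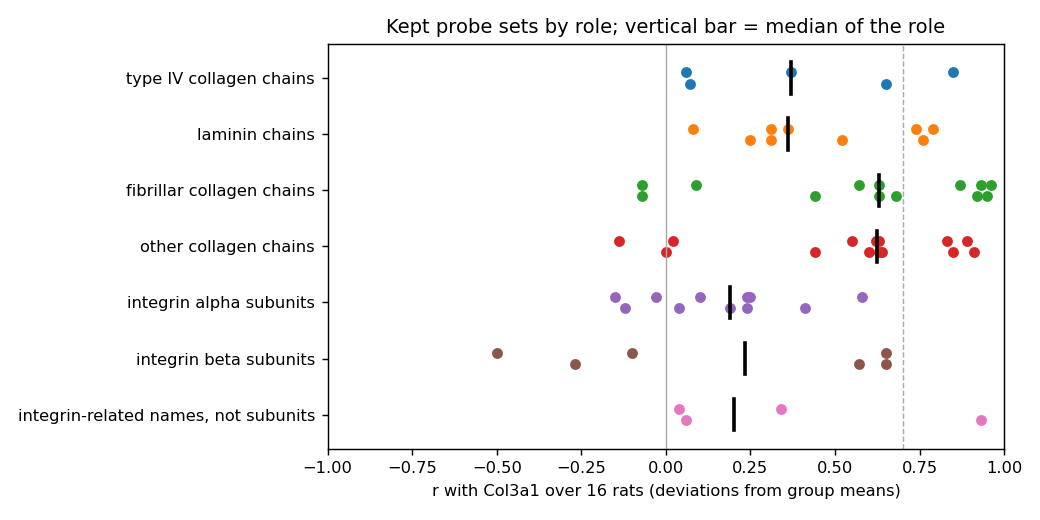
Pearson r with Col3a1 over 16 rats for each of the 62 other bright members, by role, on deviations from group means, with the median of each role as a bar and 0.7 as the dashed line. The medians are 0.63 for fibrillar and other collagens, 0.37 for type IV collagen, 0.36 for laminins, and 0.19 and 0.24 for integrin alpha and beta subunits.

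Markers of meningeal cells and fibroblasts varied with Col3a1 from rat to rat. All 12 of the list were bright, and 0 were called in any comparison, against 0.0% to 4.22% of all probe sets. Their mean gave r = 0.99 with Col3a1 (permutation p = 1e-05, the smallest these permutations can give, adjusted 9e-05) and rho = 0.96 (p = 4e-05, adjusted 0.000315). Without the 2 farthest rats r was 0.98, and on the 13 arrays with low BioC 0.99. Single markers ran from r = 0.47 for Mgp to 0.97 for Slc6a13, a transporter of the meninges. Of the genes outside the members, Slc6a20a, Slc6a13, Colec12, Igfbp2 and Aldh1a2 had the highest r with Col3a1, from 0.96 to 0.98, and were picked after their values were seen. Dcn, Lum and Bgn of this list also stand in the list of basement membrane partners, and Pdgfra in that of oligodendrocyte precursors. Endothelial markers, 12 of 12 on the array bright, gave r = 0.74 (permutation p = 0.00139, adjusted 0.0025) and rho = 0.77 (p = 0.00549, adjusted 0.00988), with r = 0.83 without the 2 farthest rats.

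The summed signal of the 12 meningeal markers ran from 16900 to 21100 in control rats, 16700 to 23500 in stress rats, 15100 to 18500 in linalool rats and 12400 to 25000 in rats with both. Their median average linalool difference was -0.27, with 0 of 12 above 0, beside -0.18 for the 14 fibrillar collagen probe sets, with 2 above 0. For stress the medians were 0.08 and 0.10. With the marker mean as a covariate, a setting chosen after the data were seen, the average linalool difference of Col3a1 was -0.12 ± 0.06 (limma adjusted p = 0.488) in place of -0.57, and that of Col1a2 was -0.08 ± 0.08 in place of -0.47. The marker mean had r = 0.99 with Col3a1, so a smaller Col3a1 difference under this covariate was fixed in advance. The same limit holds for Col1a2, which had r = 0.96 with Col3a1. These adjusted values therefore say nothing of a cause. With the covariate, the average stress difference of Col6a3 was 0.17 in place of 0.35. The median over all 63 bright members became 0.01 for stress and -0.02 for linalool. The Col4a1 values stayed at 0.19 and 0.05. In the same 16 rats Col6a3 had r = 0.89 with Col3a1, and Col4a1 had r = 0.07. How far each value moved depends on such correlations, so these values too say nothing of a cause. Without stress-with-linalool rat 1 the Col3a1 linalool difference was -0.75 (limma adjusted p = 0.155), and without rat 2 of that group it was -0.38 (limma adjusted p = 0.525). The Col3a1 average stress difference was 0.00 and 0.37 in the same order, and 0.34 on the 13 arrays with low BioC, where the linalool difference was -0.35.

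**Figure D5:**
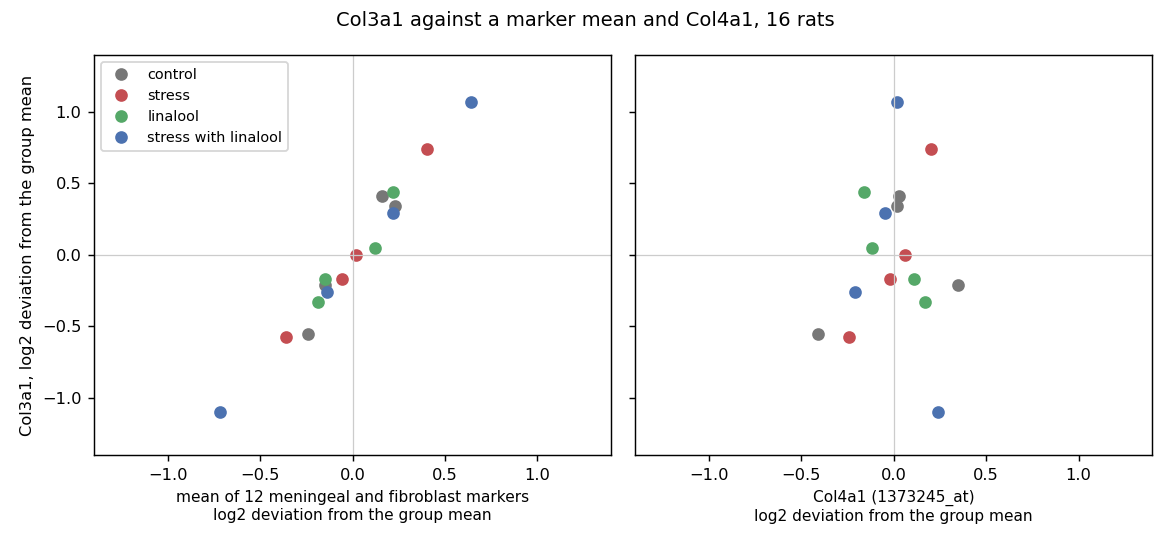
Deviation of Col3a1 from its group mean (vertical, log2) in each of 16 rats against the deviation of the mean of 12 meningeal and fibroblast markers (left) and of Col4a1 (right), coloured by group. On the left the points follow a line, from -1.10 in stress-with-linalool rat 2 to 1.07 in rat 1 of that group, and on the right they do not, with r = 0.07.

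Chains that assemble into 1 protein varied together to different degrees, again on deviations over 16 rats and as a description. The type I chains Col1a1 and Col1a2 gave r = 0.98, and the type VI chains Col6a1 and Col6a3 gave 0.90, but Col6a1 with Col6a2 gave 0.57. Col4a1 and Col4a2, which share a promoter region, gave 0.58. The cartilage-type chains Col9a2 and Col9a3 gave 0.68, and Col5a1 with Col5a2 gave 0.45. For laminins, Lamc1 gave 0.68 with Lama4, 0.61 with Lamb2 and 0.51 with Lamb1. Integrin pairs ranged more widely, from 0.70 for Itga6 with Itgb1 to 0.28 for Itga6 with Itgb4, 0.11 for Itga3 with Itgb1, 0.00 for Itgav with Itgb5 and -0.11 for Itga7 with Itgb1.

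The threshold between bright and dim lay at a mean of 6.26, the 40th percentile of all probe sets. It is a limit of brightness, not a detection call. Just inside it were Col11a1 (6.258) and Col27a1 (6.273), and just outside Lamb3 (6.189) and the remaining Itgav probe set (6.186). Dim members made up 18 of 32 probe sets of the other collagens, 12 of 23 integrin alpha subunits, 5 of 14 laminins, 5 of 19 fibrillar collagens, 4 of 10 beta subunits, 2 of 7 type IV chains and 2 of 6 integrin-related genes. Genes with dim probe sets only included Col10a1, Col17a1 and Col7a1, chains of cartilage and skin, Lama3 and Lamb3, chains of epithelial laminin, and Itgal, Itgad and Itgax, leukocyte subunits. For 15 genes there were probe sets on both sides of the threshold. In a fit without the threshold 0 of 48 dim members were called in any comparison, against 1.68% of all probe sets in the average stress difference and 0.0999% in the average linalool difference. By limma at an unadjusted p under 0.05 the counts were 1 and 6 of 48, or 2.08% and 12.5%, against 14.4% and 11.1% of all probe sets, and their medians were 0.01 and -0.08. The smallest adjusted p among them was 0.0629, in the average linalool difference.

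Where a gene had 2 or more bright probe sets, as 13 genes did, they did not always have the same sign. In the average stress difference 3 of 13 genes had probe sets of opposite sign, and in the average linalool difference 5 of 13. The 2 Col4a1 probe sets gave -0.10 and 0.05 for linalool, and those of Itgb1 0.03 and -0.12. Those of Col1a1, Col1a2 and Lamc1 had the same sign in both average differences. Control rat 1, with the highest beta-actin ratio, read lowest of all rats on 1 Lamc1 probe set, at 6.52, and 8.92 on the other. The part of RNA quality in such differences was not tested.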

How the data were processed

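Signal intensity for 31042 probe sets on 16 arrays came from the table the authors deposited, made with MAS5 (version and scaling target unstated) per the submitters' processing notes. For arrays, their number limits the precision. Because array medians differed, values were quantile-normalized on the log2 scale, raised by 16 and taken as log2. The 57 control probe sets were left out, and 18625 at or above the 40th percentile of mean log2 were kept. Names came from the platform table, where 20826 probe sets had 1 symbol and 436 several.

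One model of the 4 group means was fitted to all 16 arrays by limma 3.58.1 (lmFit, eBayes, R 4.3.3), giving two-sided p-values with 12 residual and 3.96 prior degrees of freedom, adjusted over the kept probe sets of each of 7 comparisons. The code was tested on simulated data. The series' design gives 4 rats to each group, and p-values set a difference of group means against the spread between these rats. Alternatives changed the scaling, pseudocount, threshold, blocks, covariates and array weights or left out 1 rat.

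Named were called members or the 5 smallest p per comparison, Col4a1, Lama4, Lamc1, Itgb1 and Itgav, the 6 widest and 3 narrowest spreads, the 2 members on each side of the threshold, and, per list, up to 4 called genes per comparison or else the 2 smallest p. Other names were added after values were seen. Lists were represented by the brightest probe set of a gene. The members, the 3 pathway lists and the 12 marker lists were chosen with earlier results of these data known.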

Additional observations from a re-analysis of the deposited data

Results flagged for a closer look

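Among 132 groups of 4 rats (33 probe sets in 4 groups), 7 held a rat whose distance to the nearest other rat exceeded 0.829 of the group's range, Dixon's 95% limit. Chance flags about 1 in 20 groups. Linalool rat 1 was far below the other linalool rats for Col5a1, at 6.79 against 7.02 to 7.05, and far above them for Col15a1, at 7.25 against 6.57 to 6.66, and for Apbb1ip, at 7.74 against 7.42 to 7.45. Linalool rat 3 stood above its group for Lama5, at 7.09 against 6.61 to 6.68, and for Plod1, at 9.00 against 8.82 to 8.85. Linalool rat 4 stood above its group for P4ha1, at 9.37 against 9.16 to 9.19. Stress rat 3 stood below its group for P4ha2, at 8.70 against 9.11 to 9.19. The cause was not tested for any of them.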

How the results depend on the processing

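The count of members called was 0 in all 7 comparisons under each alternative run (scaling, pseudocount, threshold, blocks, covariates, array weights and leaving out each rat), with these exceptions. With values as deposited, 2 members were called in stress with linalool minus linalool, Col11a1 at 0.73 (limma adjusted p = 0.0348) and Itgav at 0.74 (0.0415), where the median of all probe sets was 0.32. In the average stress difference 1 was called, Col23a1 at 0.46 (0.0388), where that median was 0.21. Leaving out each rat in turn gave 0 to 1 members in the average linalool difference: Lamb1, at -0.41 (0.0397), without control rat 2. The interaction of Col25a1 turned from -0.22 to 0.03 (0.971) with values as deposited, a setting in which the median interaction of all probe sets moved from -0.02 to 0.22.

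The calls among collagen folding genes in stress minus control numbered 1 with values as deposited, without the brightness threshold, within the arrays with low BioC and with array weights, and 1 to 3 when a rat was left out. In stress with linalool minus linalool they numbered 2 without the threshold, 0 within the arrays with low BioC and 1 to 4 when a rat was left out, and for average stress 4 to 5. P4ha2 and Plod1 lost the call in stress minus control in several of these settings. Of 1302 alternative values of 47 named results, 1257 kept their direction and side of the threshold. The correlation of Col3a1 with the meningeal markers stayed between 0.97 and 0.99.

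With the replicate number as a block, 0 members were called in each comparison and the folding genes called numbered 2, 4 and 4. Rats with the same number did not vary together (correlations of -0.164 to 0.226, with 2, 2, 0 and 0 of 6 pairs over 0.1 for numbers 1 to 4), so the numbers were not taken as pairs. Differences under about 0.5 were within the intervals of many members.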
